A study of Mus musculus with 16 samples.

Results

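RNA-seq was used to set bone marrow LSK libraries labelled DNMT3A R882H against those labelled WT, both from recipients given NaCl. The comparison took all 4 libraries of R882H with NaCl and all 4 of WT with NaCl, by their labels, out of 16 in the series. The other 8 libraries (5 of R882H and 3 of WT) came from recipients given azacitidine and were used to estimate the spread and to look again at the genes that stood out. Counts were given for 30141 genes, of which 18341 passed a filter on low counts and were tested.

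LSK cells lack markers of mature lineages and carry Sca1 and Kit, a surface phenotype shared by haematopoietic stem cells and the multipotent progenitors next to them. R882H libraries came from marrow with mouse WT DNMT3A and a human DNMT3A cDNA bearing R882H, placed behind a Lox-Stop-Lox cassette in the endogenous locus of C57BL/6N-derived JM8.N4 embryonic stem cells. Mx1-Cre, which interferon or poly(I:C) switches on in blood-forming cells and in other tissues such as liver, removed the stop. WT libraries carried mouse WT DNMT3A only. Donors with and without Mx1-Cre had poly(I:C), 15 µg for each g of body weight, and their marrow was taken 4 weeks afterwards. Another schedule, of 400 µg per mouse, is also described without the animals that had it. Donor marrow was mixed 1:1 with CD45.1 WT marrow, and transplanted into CD45.1 recipients. After a blood engraftment check at 2 weeks, recipients in these groups were given 0.9% NaCl for 2 weeks. Separation of donor cells from CD45.1 cells before RNA was taken is not described, and neither is whether each library was 1 recipient. The p-values therefore measure the spread between these libraries, which may be technical. Ages are not given in the labels.

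DNMT3A adds methyl groups to cytosines of CpG sites that were not methylated before, and it works in complexes of several DNMT3A molecules. The arginine that R882H replaces lies where these molecules meet, and R882H is the most frequent DNMT3A change in clonal haematopoiesis and acute myeloid leukaemia. Mouse stem cells without Dnmt3a are known to self-renew more and to give rise to fewer differentiated cells. The question addressed here is which transcripts differed between the R882H and WT libraries without azacitidine.

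Total counts ran from 35860445 to 48078144 in R882H and from 39303293 to 45429603 in WT. Libraries numbered 1 and 2 stood apart from those numbered 3 and 4 in both genotypes. What a number denotes is not given in the labels. The first principal component of log2 CPM (CPM being the count scaled to the TMM-normalised library size) held 38.3% of the variance. On it R882H replicates 1 and 2 lay at -87.9 and -79.4 and WT replicates 1 and 2 at -16.5 and -38.7, while all 4 libraries numbered 3 or 4 lay between 43.9 and 62.4. The second component held 22.3% and set R882H replicate 1, at 98.3, apart from R882H replicate 2, at -58.4. Between the number sets, averaged over genotype, edgeR called 29.2% of the genes tested.

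**Figure D1:**
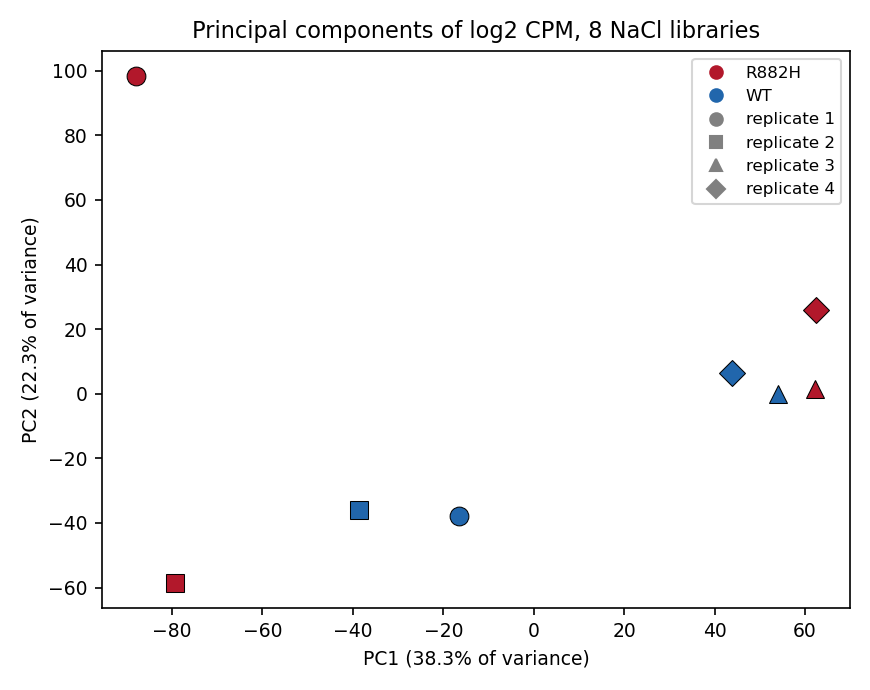
Principal components of log2 CPM over the 8 NaCl libraries, PC1 (38.3% of variance) on the x axis and PC2 (22.3%) on the y axis, coloured by genotype (R882H red, WT blue) and shaped by replicate number. The 4 libraries numbered 3 and 4 lie together at the right, at 43.9 to 62.4 on PC1, whereas R882H replicates 1 and 2 lie at -87.9 and -79.4 and far from each other on PC2.

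The sort left its mark in all 8 libraries. Kit, the stem cell factor receptor used in the gate, ranged from 410 to 1226 CPM in R882H and from 429 to 1089 CPM in WT. Ly6a, which encodes Sca1, ranged from 48.5 to 275 CPM in R882H and from 50.4 to 131 CPM in WT. Ptprc, the CD45 gene that all leucocytes share, averaged 204 ± 63.2 CPM in R882H and 184 ± 33.6 CPM in WT (SD, n = 4 each), a log2 difference of 0.15. Of the markers that such sorts deplete, Ly6g did not exceed 0.207 CPM in R882H, nor 0.177 CPM in WT. Itgam, the CD11b gene, stood at 4.59 ± 1.28 CPM in R882H and 5.42 ± 0.970 CPM in WT, and Cd4 at 3.20 ± 2.07 CPM in R882H and 2.09 ± 0.741 CPM in WT. The T cell gene Cd3e went against the sort in R882H replicates 1 and 2, as described with its lineage. All 8 libraries had the sex-linked pattern of male cells, with Ddx3y at 66.4 to 83.6 CPM in R882H and 57.9 to 83.5 CPM in WT, and Xist at 0.266 CPM or less in R882H and 0.853 CPM or less in WT. Uty, another Y-linked gene, stood at 30.3 ± 5.75 CPM in R882H and 24.1 ± 6.57 CPM in WT.

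Mouse Dnmt3a (ENSMUSG00000020661, chromosome 12, 3806007 to 3914443, GRCm38) was measured at 108, 62.9, 91.1 and 100 CPM in R882H replicates 1 to 4, against 106, 97.1, 82.8 and 101 CPM in WT. The groups overlapped, with the lowest level in R882H replicate 2. Its log2 difference was -0.10 (SE 0.19, 95% interval -0.49 to 0.30, edgeR adjusted p = 0.999). The human transcript was not counted under a name of its own, and whether its reads were assigned to mouse Dnmt3a was not tested, so this level does not check the genotype labels.

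The genotype difference was weak in edgeR, which called 1 gene of 18341 (0.00545%). At an unadjusted p under 0.05 there were 1026 genes, 5.59% of those tested, of which 667 were higher in R882H (3.64%) and 359 lower (1.96%). In 161 genes every R882H library lay above every WT library (0.878%), and in 200 genes below (1.09%). The median log2 difference over all genes was 0.03, and 54.2% of genes were above 0. The genes named next, 10 higher and 9 lower, were those with the lowest unadjusted p among genes whose groups did not overlap and whose mean log2 CPM was at least 1, gene models and pseudogenes left out. Their differences did not pass (edgeR adjusted p = 0.797 for each), and since the overlap was part of the choice, it is no finding. Within replicates 1 and 2 and within replicates 3 and 4, all 19 had the same sign as in the pooled fit, which a choice of non-overlapping groups fixes.

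Clca3a1 (ENSMUSG00000056025, chromosome 3, 144729677 to 144760977, minus strand) belongs to the family of calcium-activated chloride channel regulators. It had 26.6, 21.7, 11.7 and 9.86 CPM in R882H, against 5.92, 5.76, 3.49 and 3.93 CPM in WT. Replicates 1 and 2 were the higher pair in both genotypes, and each R882H library exceeded the WT library of its number. The log2 difference was 1.87 (SE 0.37), 2.05 within replicates 1 and 2 and 1.54 within replicates 3 and 4. With replicate number as a block over all 16 libraries, edgeR called Clca3a1 and no other gene (log2 difference 1.80, adjusted p = 0.043). With the block in the 8 NaCl libraries alone it called 0 genes. Under azacitidine the genotypes overlapped, at 8.56 ± 3.27 CPM in R882H (n = 5) and 9.76 ± 3.19 CPM in WT (n = 3), a log2 difference of -0.19. The change of this difference with treatment was 2.06 (edgeR adjusted p = 0.763).

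Rdh10, which oxidises retinol to retinaldehyde, had 21.1, 18.6, 11.5 and 12.6 CPM in R882H, against 9.62, 8.56, 8.30 and 9.90 CPM in WT. All R882H libraries lay above all WT libraries, with R882H replicates 1 and 2 the highest. On the log2 scale R882H minus WT was 0.81 (SE 0.22). Aldh1a1, which oxidises retinaldehyde to retinoic acid, had 66.8, 85.3, 47.2 and 48.7 CPM in R882H, against 31.997, 26.3, 30.6 and 36.8 CPM in WT. R882H replicates 1 and 2 were again the highest. The log2 difference was 0.98 (SE 0.27). Within replicates 3 and 4 the log2 differences were 0.41 for Rdh10 and 0.51 for Aldh1a1. Under azacitidine they were 0.18 for Rdh10 and 0.49 for Aldh1a1, with overlapping groups.

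**Figure D2:**
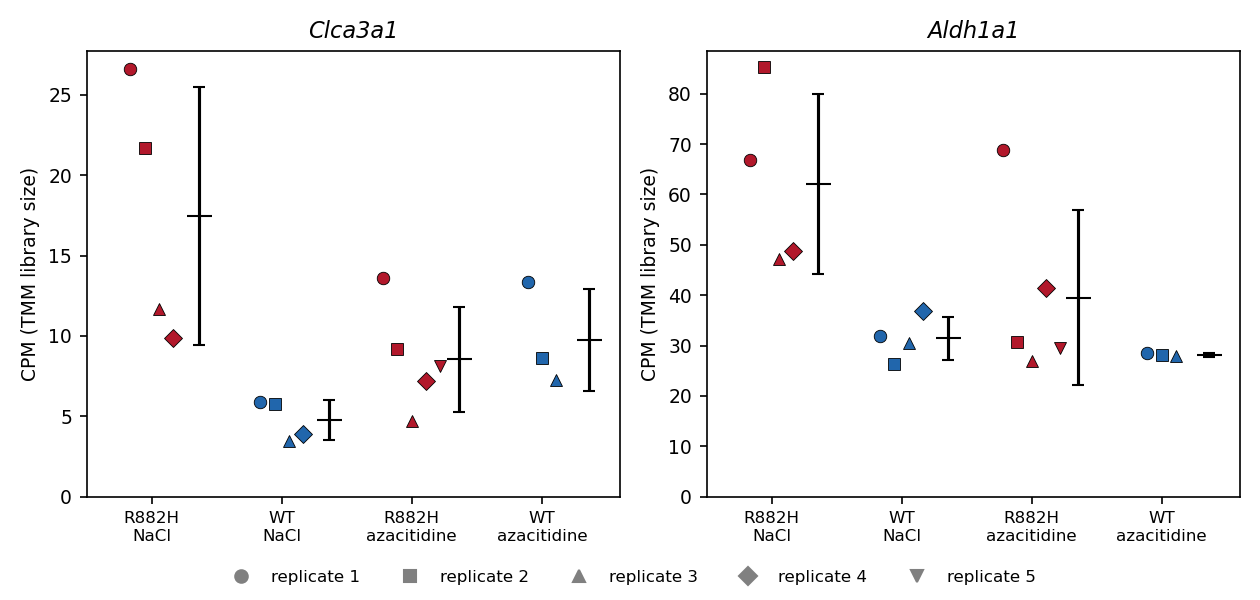
CPM of Clca3a1 (left) and Aldh1a1 (right) in each library of R882H and WT under NaCl and under azacitidine, with marker shape for replicate number and bars for mean ± SD. Under NaCl the R882H libraries lie at 9.86 to 26.6 CPM of Clca3a1 and the WT libraries at 3.49 to 5.92 CPM, whereas the genotypes overlap under azacitidine for both genes.

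Klf9, a Krüppel-like transcription factor induced by glucocorticoids, had 24.9, 34.7, 20.8 and 20.2 CPM in R882H, against 12.6, 12.7, 12.4 and 16.6 CPM in WT. Every R882H library exceeded the highest WT library, replicate 4. Its log2 difference was 0.89 (SE 0.22). Gpx3, a secreted glutathione peroxidase, had 7.29, 2.64, 2.44 and 2.77 CPM in R882H, against 1.31, 1.57, 1.34 and 0.983 CPM in WT. R882H replicate 1 was far above the others. The log2 difference was 1.53 (SE 0.35).

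The remaining higher genes were Trim2, Myo1d, Lysmd3, Specc1 and Mfap1b. Trim2, an E3 ubiquitin ligase, averaged 6.90 ± 3.27 CPM in R882H and 2.73 ± 0.663 CPM in WT (log2 difference 1.34, SE 0.38). Myo1d, a class I myosin, had 18.3, 62.04, 17.3 and 12.7 CPM in R882H, against 7.23, 8.96, 9.36 and 12.3 CPM in WT. R882H replicate 2 stood far above the rest, and R882H replicate 4 was close to the highest WT library. On the log2 scale R882H minus WT was 1.54 (SE 0.45), 2.31 within replicates 1 and 2 and 0.47 within replicates 3 and 4. Lysmd3, a LysM domain protein of the Golgi, averaged 21.3 ± 2.74 CPM in R882H and 13.8 ± 2.39 CPM in WT (0.63, SE 0.18). Specc1, which encodes a coiled-coil protein related to cytospin, averaged 35.7 ± 8.06 CPM in R882H and 23.6 ± 2.26 CPM in WT (0.60, SE 0.17). Mfap1b, a spliceosome component, averaged 27.98 ± 6.48 CPM in R882H and 18.4 ± 1.68 CPM in WT (0.61, SE 0.16). Mfap1b has a near-identical neighbour, Mfap1a, so its level is uncertain.

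Among the lower genes, Nrm, which encodes nurim of the inner nuclear membrane, had 94.98, 75.9, 95.02 and 101 CPM in R882H, against 170.5, 166, 117 and 112 CPM in WT. WT replicates 3 and 4 were close to the R882H libraries and WT replicates 1 and 2 far above them. The log2 difference was -0.62 (SE 0.16), -0.98 within replicates 1 and 2 and -0.22 within replicates 3 and 4. Bin1, a membrane-bending BAR domain protein, had 64.1, 42.7, 79.8 and 68.3 CPM in R882H, against 136, 128, 103 and 87.2 CPM in WT. R882H replicate 2 was the lowest library. Its log2 difference was -0.83 (SE 0.21).

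Kcnk12, a potassium channel subunit, averaged 62.5 ± 15.8 CPM in R882H and 100.5 ± 20.3 CPM in WT (log2 difference -0.69, SE 0.19). Egfl7, a secreted EGF-like protein whose gene also hosts a microRNA active in stem cells, had 149, 100.3, 139 and 169 CPM in R882H, against 227, 232, 176 and 177 CPM in WT. R882H replicate 4 was close to WT replicates 3 and 4. Egfl7 had a log2 difference of -0.55 (SE 0.17). Emid1, an extracellular EMI domain protein, differed by -0.62 (SE 0.17), and Tuba1a, an alpha-tubulin with near-identical paralogues that make its level uncertain, by -0.56 (SE 0.15). B3gnt7, a glycosyltransferase of keratan sulphate synthesis, differed by -0.67 (SE 0.21). Myl4, a myosin light chain, and Dleu7 were low, at 3.19 ± 0.733 and 3.54 ± 0.717 CPM in R882H and 6.13 ± 2.10 and 6.03 ± 1.16 CPM in WT, with log2 differences of -0.94 and -0.77.

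**Figure D3:**
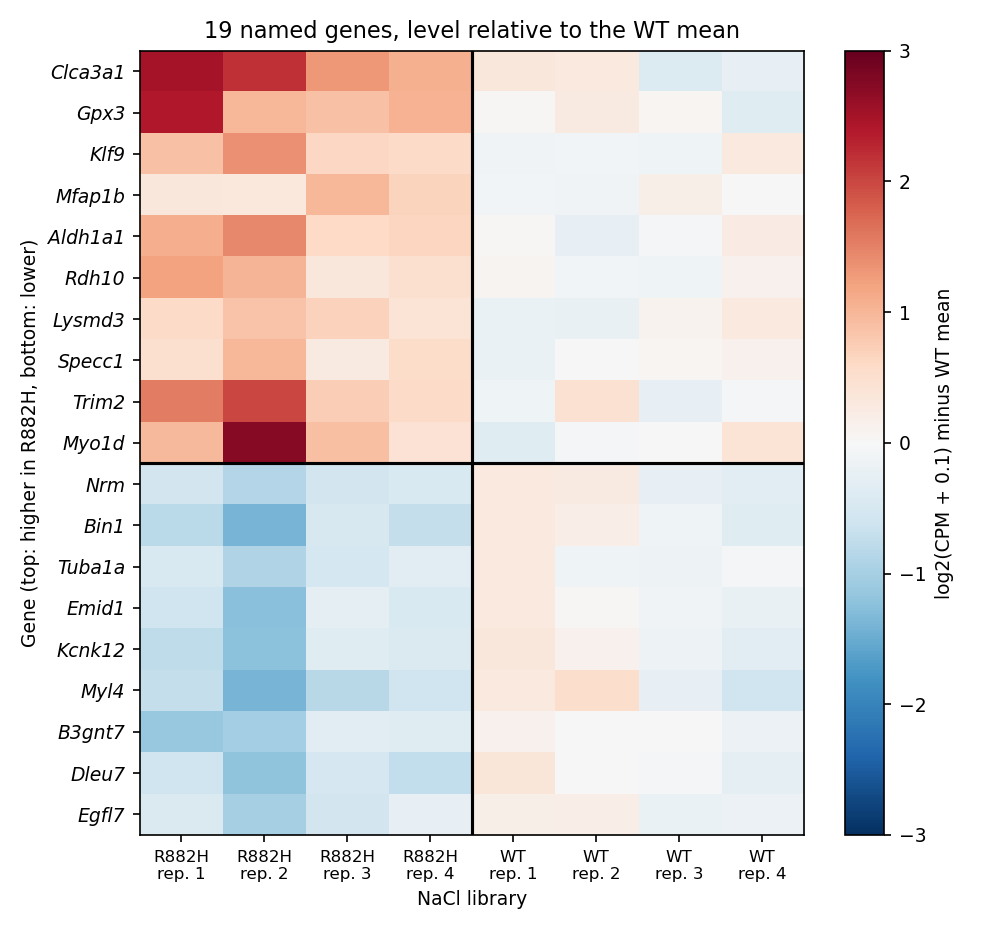
Level of the 19 named genes in each NaCl library (R882H left, WT right) as log2(CPM + 0.1) minus the mean of the 4 WT libraries, in red where above that mean and in blue where below. Most genes differ most in either R882H replicate 1 or R882H replicate 2, but Mfap1b in R882H replicate 3 (36.7 CPM). Myo1d stands out in R882H replicate 2, where it had 62.04 CPM.

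In the azacitidine libraries, 7 of the 10 higher genes had a positive log2 difference and 7 of the 9 lower genes a negative one, with medians of 0.17 and -0.10, against 0.94 and -0.67 under NaCl. Clca3a1, Gpx3 and Klf9 were higher in WT there, and B3gnt7 and Egfl7 higher in R882H, with no test passed. For Specc1 the genotypes did not overlap, at 26.8 to 33.6 CPM in R882H and 18.9 to 26.5 CPM in WT. They overlapped for the other 18. The Specc1 gap was small. The share of all genes without overlap under azacitidine was not counted, so Specc1 is not read as a result. Over all 18341 genes 51.6% had the same sign under both treatments, and over the 1026 genes at an unadjusted p under 0.05 it was 61.6%. Both contrasts came from 1 fit and use different libraries.

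DNMT3A acts on CpG sites, so the 250 bases before the start of transcription are shown for Clca3a1, the gene called with the block, and for Klf9, as examples of a CpG-poor and a CpG-rich promoter among the higher genes. The sequences are RefSeq promoters of build GRCm38.p6, 5′ to 3′ on the strand of the gene, with each CpG in capitals. Clca3a1 is the minus strand of chr3:144760978-144761227 and Klf9 the plus strand of chr19:23140976-23141225.
Clca3a1: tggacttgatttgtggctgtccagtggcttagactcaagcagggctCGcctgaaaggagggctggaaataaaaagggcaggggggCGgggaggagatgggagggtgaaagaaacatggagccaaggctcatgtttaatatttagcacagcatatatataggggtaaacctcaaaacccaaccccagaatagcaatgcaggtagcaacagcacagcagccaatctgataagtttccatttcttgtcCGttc
Klf9: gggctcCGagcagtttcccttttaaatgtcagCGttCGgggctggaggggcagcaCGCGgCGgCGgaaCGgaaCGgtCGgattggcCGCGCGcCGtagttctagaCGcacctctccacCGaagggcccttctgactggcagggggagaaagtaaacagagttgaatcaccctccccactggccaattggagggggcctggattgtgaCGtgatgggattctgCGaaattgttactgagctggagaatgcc
The Clca3a1 stretch holds 3 CpG and the Klf9 stretch 18. Of 27025 promoters of this length, 1 per symbol, 38.1% hold 3 or fewer CpG and 80.4% hold 18 or fewer. Promoters were found for 16 of the 19 named genes. The higher ones had a median of 11 CpG (n = 8) and the lower ones 16 (n = 8), against 6 over all promoters, with a range of 3 to 36. The named genes averaged at least 1 in log2 CPM, whereas the 27025 promoters were not filtered by level. These sets are therefore unlike, and no CpG excess is read from the medians. No methylation was measured here, and these counts describe the sequence only.

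Gene lists were then described by lineage and pathway. Each list is given by the number of tested members with a positive log2 difference, its median and, where there were any, its members at an unadjusted p under 0.05, to be read against 3.64% higher and 1.96% lower over all genes. No member of any of the 40 lists passed in edgeR over all genes. In 19 lists the median differed in sign between replicates 1 and 2 and replicates 3 and 4. Medians without R882H replicates 1 and 2 set R882H replicates 3 and 4 against all 4 WT libraries, so they mix genotype with replicate number. In a sorted bulk sample, fewer cells of a type and less RNA per cell cannot be told apart.

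Stem cell genes were on the higher side in R882H in both number sets. Among 31 genes of the stem cell identity list, 27 had a positive log2 difference, with a median of 0.35, 0.30 within replicates 1 and 2 and 0.33 within replicates 3 and 4. Mllt3, a regulator of stem cell maintenance, had 95.3, 62.4, 52.9 and 70.6 CPM in R882H, against 31.9, 31.2, 37.8 and 59.7 CPM in WT. R882H replicate 3 lay inside the WT range. The log2 difference was 0.81 (SE 0.28). Nupr1, a stress-induced chromatin protein, had 53.9, 12.8, 24.8 and 31.8 CPM in R882H, against 10.4, 9.04, 12.4 and 17.4 CPM in WT, with R882H replicate 2 inside the WT range (1.32, SE 0.40). Sult1a1, a sulphotransferase, averaged 28.6 ± 18.9 CPM in R882H and 11.5 ± 7.501 CPM in WT (1.31, SE 0.58). These 3 were the members at p under 0.05.

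Classical markers of long-term stem cells varied more with replicate number than with genotype. Procr, the endothelial protein C receptor, had 88.5, 22.6, 81.97 and 107 CPM in R882H, against 37.8, 35.4, 77.1 and 95.97 CPM in WT, a log2 difference of 0.29. Mecom, the transcription factor EVI1, had 43.6, 18.1, 82.3 and 77.2 CPM in R882H, against 17.4, 15.4, 50.6 and 71.6 CPM in WT (0.51). In both genes R882H replicate 2 was among the lowest libraries, beside WT replicates 1 and 2. Hlf, a stem cell transcription factor, differed by 0.19. The list score, the mean log2 CPM of its members, was 5.49, 4.22, 5.74 and 5.87 in R882H and 4.69, 4.44, 5.24 and 5.63 in WT. The list median was 0.31 without R882H replicate 1, 0.59 without R882H replicate 2 and 0.63 without both. The last value mixes genotype with replicate number. Averaged over genotype, replicates 1 and 2 minus replicates 3 and 4 gave a list median of -0.86.

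Hox, Meis and Pbx factors, which sustain self-renewal and are raised in many leukaemias, had 13 of 21 positive and a median of 0.14, 0.07 without R882H replicate 1 and 0.27 without R882H replicate 2. At p under 0.05, 1 member was higher and 1 lower, Hoxb2 and Hoxa7. Hoxa9 (-0.29), Meis1 (0.01) and Mn1 (-0.71) gave log2 differences with overlapping groups. Hoxa7 had 39.98, 19.7, 43.4 and 43.8 CPM in R882H, against 57.2, 53.3, 46.97 and 48.3 CPM in WT, all R882H libraries below all WT libraries (-0.49, SE 0.20). Hoxb2 went the other way, with 4.49, 2.31, 2.25 and 1.91 CPM in R882H and 1.15, 1.81, 1.42 and 1.59 CPM in WT (0.87, SE 0.29).

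Genes of multipotent progenitors were on the lower side. Of 15, 13 were negative, with a median of -0.37, -0.57 within replicates 1 and 2 and -0.06 within replicates 3 and 4. Without R882H replicate 2 it was -0.16. Spi1 and Cd48, both lower, were the 2 members at p under 0.05. The score was 7.85, 7.2, 7.73 and 7.79 in R882H and 8.11, 8.19, 7.93 and 7.89 in WT. This was the 1 list of 40 whose scores did not overlap, and the gap between R882H replicate 1 and WT replicate 4 was small. Over all genes the groups did not overlap in 0.878% (higher) and 1.09% (lower), so 1 list of 40 is not read as a result. Cd48, a SLAM family marker of progenitors beyond the stem cell, had 141, 125, 125 and 127 CPM in R882H, against 316, 295, 149 and 133 CPM in WT. WT replicates 1 and 2 were far above the 6 other libraries. On the log2 scale R882H minus WT was -0.79 (SE 0.25). Spi1, the myeloid transcription factor PU.1, averaged 188 ± 44.8 CPM in R882H and 268 ± 48.2 CPM in WT (-0.52, SE 0.20). Cd34 averaged 875 ± 431 CPM in R882H and 1272 ± 82.4 CPM in WT (-0.54), and Flt3, the receptor of lymphoid-primed progenitors, 502 ± 285 CPM in R882H and 649.8 ± 143 CPM in WT (-0.37).

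Among 25 lymphoid priming genes, 18 had a negative log2 difference and the median was -0.44, and 7 were at p under 0.05, all lower. Dntt, the terminal transferase that diversifies antigen receptors, had 272, 58.7, 357 and 338 CPM in R882H, against 583, 563, 506 and 309 CPM in WT. WT replicate 4 lay inside the R882H range and R882H replicate 2 was far below all others. Its log2 difference was -0.94 (SE 0.39). Rag2, part of the recombinase, had 3.75, 1.64, 8.37 and 5.64 CPM in R882H, against 9.86, 12.7, 10.7 and 6.18 CPM in WT (-1.02, SE 0.37). Ebf1 and Vpreb2, early B lineage genes, were highest in WT replicates 1 and 2. Vpreb2 had 0, 0.0513, 0.0479 and 0.0208 CPM in R882H and 1.71, 1.63, 0.0759 and 0.164 CPM in WT. Satb1, a chromatin organiser of lymphoid progenitors, differed by -0.56 and the actin-binding Cnn3 by -0.65. Il7r, the interleukin-7 receptor, averaged 8.90 ± 10.2 CPM in R882H and 5.84 ± 1.47 CPM in WT, and R882H replicate 1 alone had 24.1 CPM (0.60).

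The lymphoid median was -0.84 within replicates 1 and 2 and -0.21 within replicates 3 and 4. It was -0.55 without R882H replicate 1, -0.26 without R882H replicate 2 and -0.47 without both.

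Erythroid and haem synthesis genes rested on R882H replicates 1 and 2. Of 34 genes, 31 were positive, with a median of 1.24, and 15 were at p under 0.05, all higher. Klf1, the transcription factor that drives red cell development, had 217, 777, 23.1 and 14.9 CPM in R882H, against 65.3, 89.1, 42.7 and 30.7 CPM in WT. R882H replicates 3 and 4 were the lowest of all 8 libraries. Car1, a carbonic anhydrase, had 980.2, 4377, 122 and 90.5 CPM in R882H, against 209, 449, 252 and 299.7 CPM in WT. Gata1 had a log2 difference of 1.24, Klf1 of 2.18 and the erythropoietin receptor gene Epor of 1.67. Within replicates 1 and 2 the median was 1.54, and within replicates 3 and 4 it was -0.13 with 9 of 34 positive. It was 0.84 without R882H replicate 1, 0.36 without R882H replicate 2 and -0.59 without both.

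T and NK cell markers, which the sort depletes, rested on R882H replicate 1. Of 29 tested, 27 were positive, with a median of 1.06, and 12 were at p under 0.05. Cd3e had 24.2, 3.00, 0.167 and 0.291 CPM in R882H, against 0.0469, 0, 0.152 and 0.445 CPM in WT. Cd3d and Cd3g had 22.3 and 31.9 CPM in R882H replicate 1, and at most 0.430 and 0.749 CPM in WT. The summed level of 30 markers was 148 to 643 CPM in R882H and 229 to 272 CPM in WT. The median was 1.69 within replicates 1 and 2, -0.23 within replicates 3 and 4, 0.17 without R882H replicate 1 and 1.30 without R882H replicate 2. The score of R882H replicate 1 was 3.52, against 1.22, -0.24 and 0.10 in the other R882H libraries.

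Immunoglobulin genes, products of plasma cells and B cells, took 0.117 to 3.11% of gene counts in R882H and 0.457 to 5.45% in WT. Of 175 tested, 104 were positive, and 34 were higher and 14 lower at p under 0.05. Their median was 0.73, and 0.76 with the 11 genes at 0 in a whole group set to a floor of 3 counts over that group. It was 2.26 within replicates 1 and 2, -0.03 within replicates 3 and 4 and -0.21 without R882H replicate 1. Igha averaged 1094 ± 1017 CPM in R882H and 399.9 ± 248 CPM in WT, a log2 difference of 1.45. Ighd differed by -0.88 and Ighd4-1 by -0.52. Mature B and plasma cell markers had 8 of 25 positive (median -0.11, -0.44 without R882H replicate 1 and 0.11 without R882H replicate 2) and 2 lower at p under 0.05, and Jchain and Ms4a1 differed by 0.00 and 0.23. Their summed level was 1574 to 24488 CPM in R882H and 4010.2 to 46000 CPM in WT.

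Mature neutrophil markers had a median of -0.26 with 4 of 15 positive, and opposite signs in the number sets, 1.78 in replicates 1 and 2 and -2.74 in replicates 3 and 4. Without R882H replicate 1 the median was -1.75, and without R882H replicate 2 it was -0.10. S100a8, S100a9 and Ltf had log2 differences of -0.09, -0.05 and -1.08, and the list summed to 233 to 543 CPM in R882H and 413 to 516 CPM in WT. Stfa2 was at 0 in all 8 libraries. Macrophage and dendritic cell markers were positive in 19 of 24 (median 0.53) with 2 higher at p under 0.05, and had summed levels of 214 to 278 CPM in R882H and 199 to 241 CPM in WT. Adgre1, the F4/80 gene, differed by 0.52, C1qa by 0.73 and Vcam1 by 0.78. Slc40a1, the iron exporter, had 113 CPM in R882H replicate 2 and at most 18.8 CPM in the other R882H libraries, against 6.41 to 12.7 CPM in WT. Endothelial and stromal markers had 7 of 14 positive and 2 higher at p under 0.05, and Pecam1, Cxcl12 and Kdr differed by -0.31, -0.12 and 1.32. Kdr, a receptor of vascular growth factor, had 2.21, 1.51, 2.30 and 4.43 CPM in R882H and 1.01, 0.800, 0.987 and 1.38 CPM in WT, without overlap.

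Mast cell and basophil markers were positive in 11 of 16 (median 0.36) with 4 higher at p under 0.05, summing to 1016 to 1311 CPM in R882H and 1037 to 1383 CPM in WT, with Mcpt4 at 0 in all 8. The median was 0.65 within replicates 1 and 2 and 0.02 within replicates 3 and 4, and it was 0.046 without R882H replicate 1 and -0.48 without R882H replicates 1 and 2. Prss34, a basophil protease, had 37.2, 17.1, 32.7 and 31.8 CPM in R882H, against 0.869, 3.81, 15.4 and 1.64 CPM in WT. Every R882H library exceeded every WT library, with WT replicate 3 close to R882H replicate 2. The log2 difference was 2.45 (SE 1.47, edgeR unadjusted p = 0.114), so Prss34 was not 1 of the 4 at p under 0.05. Those were Il1rl1, Cd200r3, Il4 and Epx. Il1rl1 had 20.9, 51.7, 1.77 and 1.41 CPM in R882H, against 2.32, 6.34, 2.81 and 1.90 CPM in WT. Cd200r3, also a basophil gene, had 0.472, 0.462, 0.407 and 0.375 CPM in R882H and 0.0469, 0.0267, 0.202 and 0.0468 CPM in WT (2.37, SE 0.58). Cpa3, Mcpt8 and Fcer1a, defining genes of these cells, differed by -0.60, 0.01 and 0.71 with overlapping groups.

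Megakaryocyte and platelet genes were split evenly, 11 of 22 positive with a median of -0.01, and 1 higher and 1 lower at p under 0.05, Selp and Itga2b. Itga2b, the platelet integrin, had 153, 206, 218 and 179 CPM in R882H, against 288, 275, 228 and 217 CPM in WT (-0.42, SE 0.18), with R882H replicate 3 just above WT replicate 4. Pf4 and Gp1bb differed by -0.09 and -0.29. Selp, the P-selectin gene, differed by 0.74 (SE 0.33). Neutrophil and monocyte priming had 11 of 28 positive (median -0.06, -0.52 without R882H replicates 1 and 2). Mpo and Prtn3, granule proteins of early myeloid cells, differed by -0.01 and -0.04, and Elane by 0.78. Nkg7 had 392, 282, 264 and 235 CPM in R882H and 631, 589.7, 323 and 264 CPM in WT, the 1 member at p under 0.05 (-0.62, SE 0.29).

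**Figure D4:**
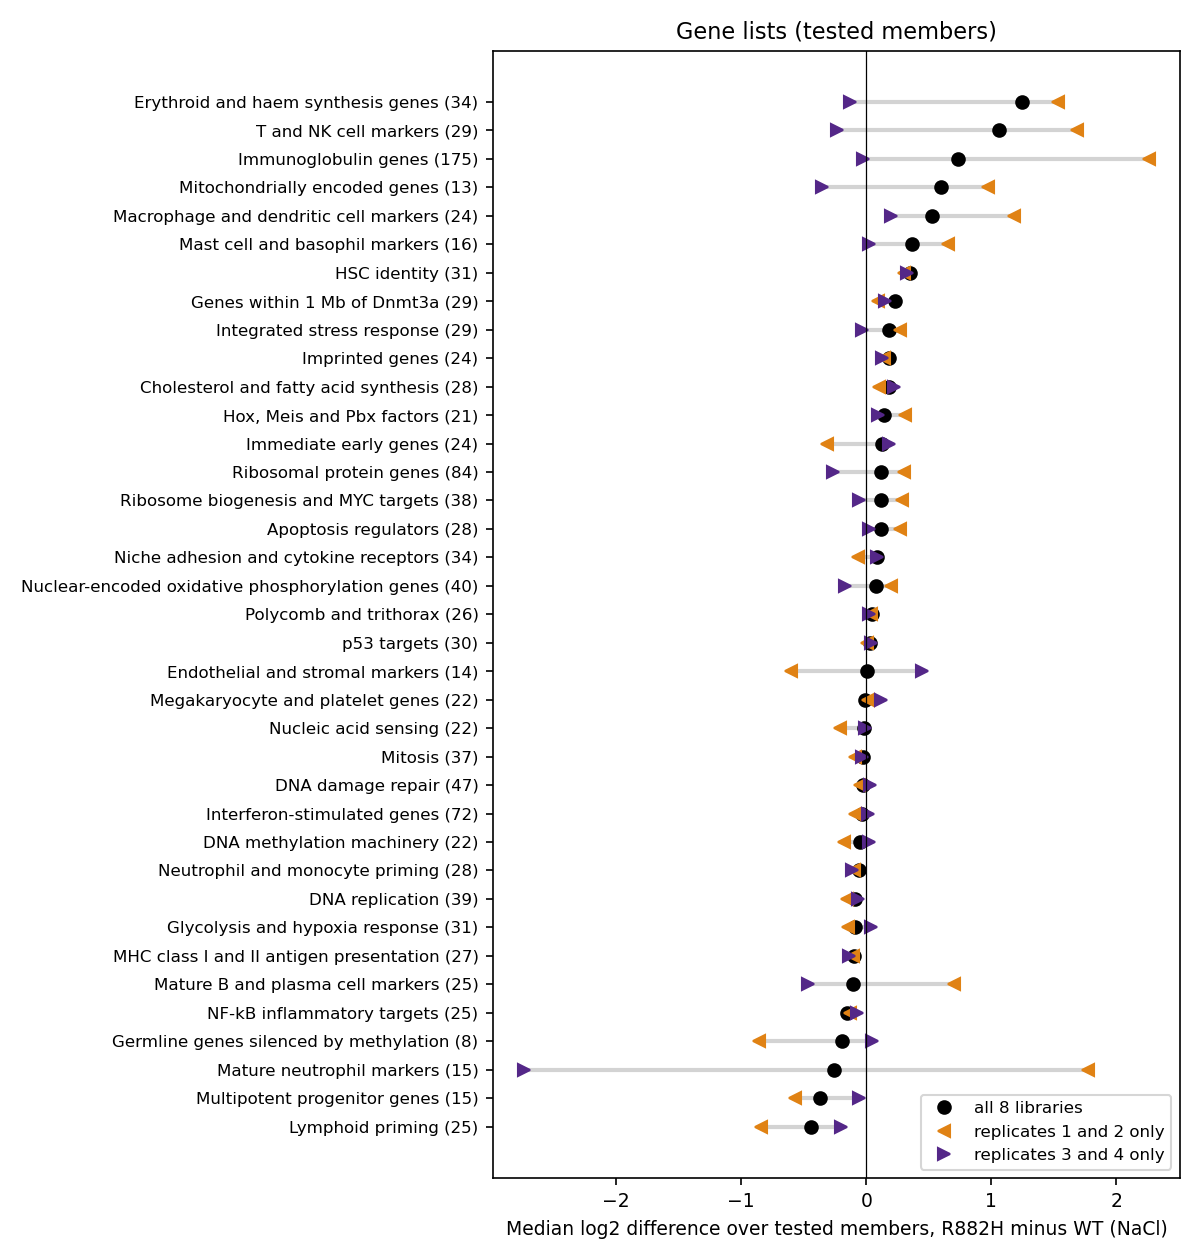
Median log2 difference (R882H minus WT, NaCl) over the tested members of each list with at least 8 tested, for all 8 libraries (circles), replicates 1 and 2 only (orange) and replicates 3 and 4 only (purple). Stem cell identity lies at 0.35, 0.30 and 0.33, while erythroid genes lie at 1.24, 1.54 and -0.13.

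**Figure D5:**
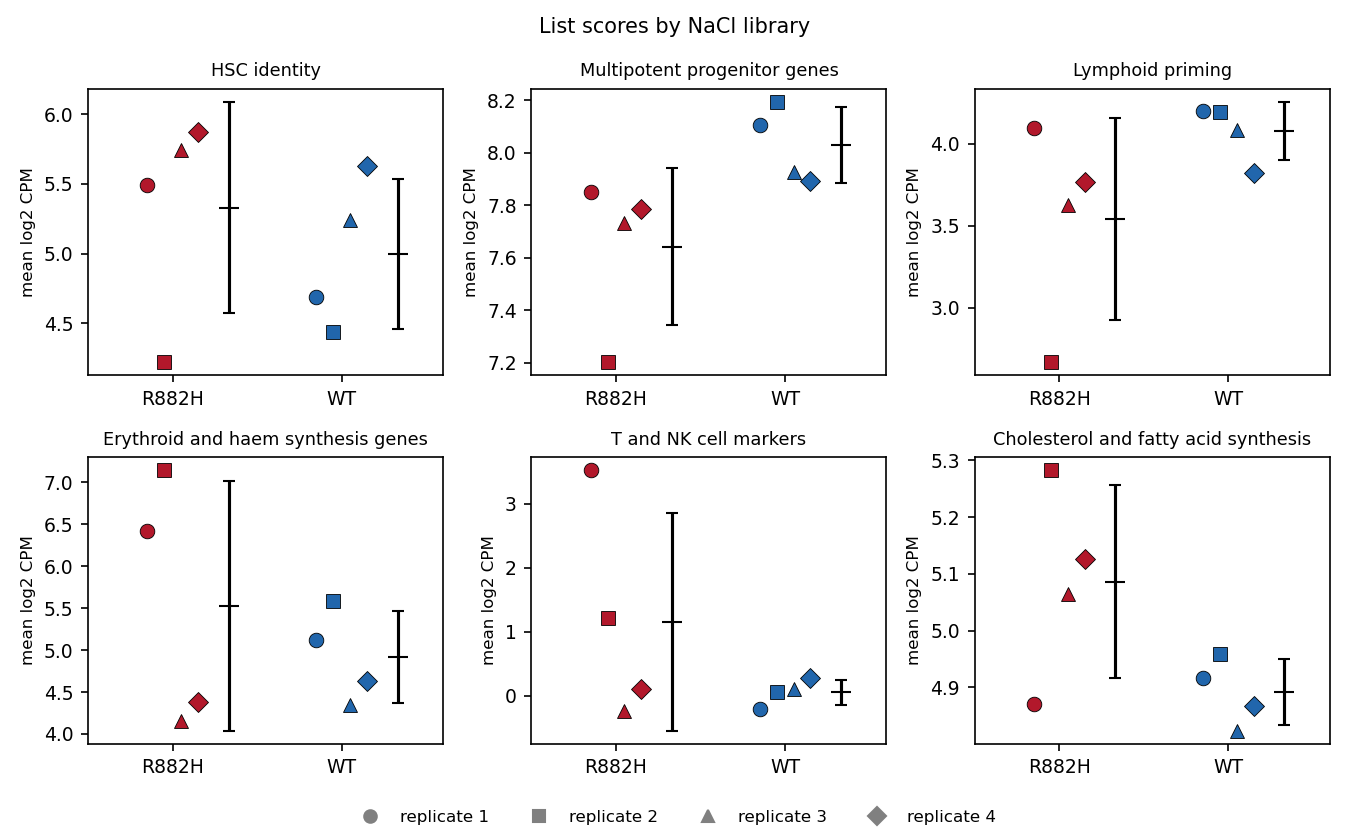
Score (mean log2 CPM of tested members) of 6 lists in each NaCl library, R882H left and WT right in each panel, with marker shape for replicate number and bars for mean ± SD. The multipotent progenitor scores do not overlap (7.2 to 7.85 in R882H, 7.89 to 8.19 in WT), and T and NK cell markers are high in R882H replicate 1 (3.52).

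No gene of the DNA methylation machinery passed in edgeR over all 8 libraries. Of 22 genes 6 were positive, with a median of -0.05. Dnmt1, the maintenance methyltransferase, had 155, 308, 479.6 and 329 CPM in R882H, against 284, 228, 443 and 325 CPM in WT, with R882H replicate 1 the lowest and R882H replicate 3 the highest. On the log2 scale R882H minus WT was -0.01 (95% interval -0.67 to 0.65). Dnmt3b, the other de novo enzyme, averaged 102 ± 41.1 CPM in R882H and 123 ± 18.4 CPM in WT (-0.26, -0.73 to 0.20). Within replicates 1 and 2 edgeR called 2 genes of the list, Dnmt3b lower (-0.70, adjusted p = 0.0497) and the stress-induced Gadd45a higher. Over all genes that contrast called 1.11% higher and 1.25% lower, and Dnmt3b differed by 0.02 within replicates 3 and 4. These 2 calls are not read as a result. Uhrf1, which brings DNMT1 to replicated DNA, differed by -0.16 (-0.60 to 0.29). The demethylating dioxygenases Tet1, Tet2 and Tet3 differed by -0.08 (-0.84 to 0.68), -0.05 (-0.63 to 0.54) and -0.05 (-0.91 to 0.81). Idh2, whose product feeds these enzymes, was the 1 member at p under 0.05 and averaged 376 ± 79.2 CPM in R882H and 494 ± 63.96 CPM in WT (-0.39, SE 0.17).

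Scores of germline genes silenced by methylation, of imprinted genes, and of Polycomb and trithorax genes overlapped between the genotypes. Of 28 germline genes written, 8 passed the filter, and 3 of these were positive (median -0.20, 0.039 without R882H replicate 1), with log2 differences of 0.21 for Dazl, -0.49 for Ddx4 and 0.27 for Brdt. Imprinted genes were positive in 16 of 24 (median 0.18, 0.073 without R882H replicate 1), with Meg3 at 0.89, Igf2r at 0.62 and Dlk1 at 0.55. Grb10, an imprinted adaptor of growth factor receptors, had 25.6, 47.6, 45.4 and 44.7 CPM in R882H, against 11.7, 9.97, 26.5 and 37.8 CPM in WT (0.93, SE 0.43), the 1 member at p under 0.05. Polycomb and trithorax genes had 15 of 26 positive (median 0.05), with Ezh2 at -0.08, Kmt2a at 0.15 and Asxl1 at 0.09.

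Around the targeted locus, 20 of 29 tested genes within 1 Mb of Dnmt3a were positive, with a median of 0.23, 0.09 within replicates 1 and 2 and 0.15 within replicates 3 and 4. Dnajc27 and Efr3b were the 2 members at p under 0.05. Dnajc27, a small GTPase with a J domain, had 30.9, 26.2, 37.3 and 45.7 CPM in R882H, against 19.04, 19.9, 23.7 and 27.996 CPM in WT (0.63, SE 0.21). WT replicate 4 lay above R882H replicate 2. Efr3b, a membrane scaffold for phosphatidylinositol kinase, had 2.27, 3.31, 6.84 and 7.53 CPM in R882H and 2.09, 2.45, 2.18 and 3.46 CPM in WT (0.97, SE 0.40). Gm9077, Rab10os and Rab10, the first by position, differed by 1.26, 0.15 and 0.05.

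Interferon-stimulated genes, which poly(I:C) is known to raise for a time, had 29 of 72 positive and a median of -0.03, 0.095 without R882H replicate 2. Ifit1 averaged 16.2 ± 8.4999 CPM in R882H and 17.9 ± 3.38 CPM in WT (-0.14) and Irf7 42.3 ± 10.1 CPM in R882H and 48.9 ± 5.39 CPM in WT (-0.21). Phf11d was the 1 member at p under 0.05 (0.81, SE 0.37). Nucleic acid sensing genes had 10 of 22 positive (median -0.02). Cgas, the DNA sensor, had 15.2, 14.8, 24.1 and 18.3 CPM in R882H, against 25.1, 23.99, 21.5 and 24.6 CPM in WT (-0.39, SE 0.18), the 1 member at p under 0.05. Tmem173, the STING gene, differed by -0.41 and Mavs by 0.09. MHC genes had 5 of 27 positive (median -0.10, -0.22 without R882H replicate 1) and 1 lower at p under 0.05, with B2m at -0.08, H2-K1 at -0.20 and H2-D1 at -0.14.

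Inflammatory NF-kB targets had 7 of 25 positive (median -0.15, 0.02 without R882H replicate 2) and 2 higher and 1 lower at p under 0.05, with log2 differences of 0.03 for Nfkbia, 0.02 for Tnfaip3 and -3.29 for Cxcl2, a chemokine at 0.311 CPM or less in R882H and 1.94 CPM or less in WT. Cd69, an activation marker, had 16.8, 15.6, 33.7 and 31.3 CPM in R882H, against 41.1, 41.7, 45.6 and 38.998 CPM in WT. All R882H libraries lay below all WT libraries, replicates 1 and 2 farthest (-0.78, SE 0.30). Immediate early genes had 17 of 24 positive (median 0.13, -0.32 within replicates 1 and 2) and varied widely between libraries. Fos, Egr1 and Jun differed by 0.20, 0.35 and 0.62, with SEs of 1.53, 0.90 and 1.29. Niche adhesion and cytokine receptor genes had 21 of 34 positive (median 0.09) and 1 higher at p under 0.05, with Cxcr4 at -0.43.

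Cholesterol and fatty acid synthesis genes were positive in 23 of 28 (median 0.18), in 17 within replicates 1 and 2 (median 0.10) and in 28 within replicates 3 and 4 (median 0.22). Lss, Scd1 and Sc5d, all higher, were the 3 members at p under 0.05. Lss, lanosterol synthase, had 21.7, 36.7, 28.1 and 28.6 CPM in R882H, against 21.1, 15.1, 20.1 and 21.3 CPM in WT (0.57, SE 0.19). R882H replicate 1 was just above the highest WT library. Scd1, which desaturates fatty acids, was high in R882H replicates 1 and 2 only, with 6.29, 6.42, 0.742 and 0.749 CPM in R882H and 0.681, 1.31, 0.430 and 0.843 CPM in WT (2.12, SE 0.84). Sc5d, a late sterol desaturase, had 35.4, 34.7, 31.9 and 34.1 CPM in R882H, against 26.1, 26.8, 29.4 and 27.2 CPM in WT (0.31, SE 0.12). Sqle, squalene epoxidase, differed by 0.24. Glycolysis and hypoxia genes had 12 of 31 positive (median -0.09) and 2 higher and 1 lower at p under 0.05, with Ldha at 0.02, Pgk1 at -0.22 and Slc2a1 at -0.09.

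No proliferation gene passed in edgeR, and the list medians moved with single libraries. Mitosis genes had 17 of 37 positive and a median of -0.03, 0.09 without R882H replicate 1 and -0.36 without R882H replicate 2. DNA replication genes had 11 of 39 positive and a median of -0.09, 0.01 without R882H replicate 1 and -0.31 without R882H replicate 2, with 1 higher and 2 lower at p under 0.05. Mki67 averaged 152 ± 85.3 CPM in R882H and 139 ± 57.5 CPM in WT (0.13), and Ccnb1 and Cdk1 differed by 0.08 and -0.17. Pcna, Mcm2 and Cdc6 differed by -0.14, -0.05 and 0.36. DNA repair genes had 22 of 47 positive (median -0.03, 0.10 without R882H replicate 1 and -0.11 without R882H replicate 2) and 1 higher at p under 0.05, with Brca1 at -0.01, Atm at 0.32 and Parp1 at -0.09. Of 30 p53 targets, 17 were positive (median 0.03), and 2 were higher and 1 lower at p under 0.05. Cdkn1a, the p21 cell cycle inhibitor, had 16.8, 10.9, 13.2 and 9.53 CPM in R882H, against 31.2, 28.98, 14.9 and 11.2 CPM in WT (-0.77, SE 0.29), with WT replicates 1 and 2 apart. Mdm2 and Bbc3 differed by 0.08 and -0.06.

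Apoptosis regulators had 15 of 28 positive (median 0.11, -0.04 without R882H replicate 1) and 2 higher and 1 lower at p under 0.05, and the survival genes Bcl2, Mcl1 and Bcl2l1 differed by -0.44, 0.23 and -0.35. Bok, a death-promoting relative of BCL2, had 3.48, 3.03, 11.6 and 8.93 CPM in R882H, against 18.6, 15.2, 12.2 and 12.4 CPM in WT (-1.11, SE 0.36), and the groups did not overlap. Integrated stress response genes had 19 of 29 positive (median 0.18, 0.08 without R882H replicate 1 and 0.02 without R882H replicate 2) and 2 higher and 1 lower at p under 0.05. Atf4 and Ddit3 differed by 0.05 and 0.22, and Asns, asparagine synthetase, by 1.42, with 321 CPM in R882H replicate 2 and at most 95.7 CPM in the other R882H libraries, against 37.1 to 60.4 CPM in WT.

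Translation and respiration genes followed replicate number. Ribosomal protein genes had 72 of 84 positive with a median of 0.12, but 79 positive within replicates 1 and 2 (median 0.30) and 1 within replicates 3 and 4 (-0.27). The median was -0.12 without R882H replicate 1 and -0.10 without R882H replicate 2. Fau, Rpl10 and Rpl10a differed by 0.23, 0.29 and 0.00. Mitochondrially encoded genes were positive in all 13 (median 0.60), with 0.97 within replicates 1 and 2, -0.35 within replicates 3 and 4 and -0.06 without R882H replicate 1. mt-Co1 averaged 1602 ± 1045 CPM in R882H and 1124 ± 264 CPM in WT (0.51), and mt-Atp6 and mt-Atp8 differed by 0.59 and 0.40. Nuclear-encoded oxidative phosphorylation genes had 31 of 40 positive (0.07), 38 within replicates 1 and 2 and 0 within replicates 3 and 4, with a median of -0.20 without R882H replicate 2. Ndufa4, Cox4i1 and Atp5b differed by -0.42, 0.05 and 0.09. Ribosome biogenesis genes had 31 of 38 positive (median 0.12) and 1 higher at p under 0.05. Within replicates 1 and 2, 35 were positive (median 0.28), and within replicates 3 and 4, 6 were (-0.06). The median was -0.15 without R882H replicate 2. Over all 8 libraries Myc differed by -0.30, Ncl by 0.26 and Npm1 by 0.33.

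The number sets gave unlike pictures. Contrasts within the sets came from 1 fit of all 16 libraries, with a coefficient for each group and number set. Their spread was therefore estimated from the azacitidine libraries too. Within replicates 1 and 2 (2 libraries per genotype), edgeR called 203 genes higher (1.11%) and 229 lower (1.25%). They included 12 erythroid genes and 11 T and NK cell genes, all higher, and 4 genes of the lymphoid list, Rag2, Vpreb2 and Bcl2 among them, all lower. Within replicates 3 and 4 it called 2 genes, both higher (0.0109%), the non-coding Gm42031 and Gm35279. The difference between the sets itself was called for 4 genes (0.0218%): Rnf128, Ctse, Gm42031 and Gm35279, all chosen here because they passed. Rnf128, the ubiquitin ligase GRAIL known from T cells, had 38.9, 22.97, 1.10 and 1.79 CPM in R882H, against 0.634, 0.533, 0.911 and 1.22 CPM in WT. The gain in R882H lay in replicates 1 and 2, the libraries that also held T cell and erythroid transcripts, whose part in it was not tested. Ctse, the aspartic protease cathepsin E, had 144, 511, 21.99 and 26.1 CPM in R882H, against 59.5, 85.5, 210.4 and 193 CPM in WT. It was higher in R882H in replicates 1 and 2 and lower in replicates 3 and 4.

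DESeq2 called 28 genes, 23 higher and 5 lower, of which 9 did not overlap between groups. Immunoglobulin genes made up 9 of them and T and NK cell markers 6, and no erythroid list member was called. The other 13 included Clca3a1 (DESeq2 adjusted p = 0.000411) and Gpx3 (0.0133). Arg1, the arginase gene, had 16.8 CPM in R882H replicate 1, and Ntn4, a netrin, 31.03 CPM in R882H replicate 2. limma-voom called 1 gene. Leaving out R882H replicates 1 and 2, which was added after these libraries were seen to stand apart, edgeR called 0 genes, with 1995 at an unadjusted p under 0.05.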

How the data were processed

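RNA was sequenced from sorted LSK cells of 16 libraries with the SMARTer low-input kit, and samples with an RNA integrity number under 8 were left out by the submitters, per the labels' protocols. The authors deposited read counts per gene, 1 table per library, not normalised. HISAT2 2.0.5, featureCounts 1.6.2, edgeR 3.26.6 and build GRCm38 are named in the submitters' processing notes. Whether counting used strand, and how reads with several matches were treated, is not given in the sources used here, so antisense neighbours and near-identical copies may share reads. Repeat elements were counted in the same tables and took 2.97 to 6.81% of total counts in the 8 NaCl libraries. They were left out of library sizes and tests. Total depth was 35860445 to 48078144 counts per NaCl library. Symbols came from GENCODE vM21 for 30100 of 30141 identifiers, and 992 of 1015 list members written were matched.

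Gene counts were tested with edgeR 4.0.16 (R 4.3.3): TMM library sizes, filterByExpr, a quasi-likelihood fit of all 16 libraries with 1 coefficient per group, and Benjamini-Hochberg adjustment over 18341 genes with a threshold of 0.05. Log2 differences are R882H minus WT. limma 3.58.1 and DESeq2 1.42.0 gave alternatives. The scripts were tested on simulated data. The named genes were called genes, filled to 10 per direction with the lowest unadjusted p among genes whose groups did not overlap and that averaged at least 1 in log2 CPM, gene models and pseudogenes left out, plus the first 3 tested members of each of 40 lists and 7 genes of DNA methylation. Some genes, among them the 1 that edgeR called, are not reported here. The members and lists were chosen with earlier results of these data known. Other alternatives were DESeq2 size factors, upper quartile factors, no filter or a stricter one (CPM of 1 in 4 libraries), the 8 NaCl libraries alone, number terms and sets, and each library left out.

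R882H and WT libraries share replicate numbers. Deviations of same-numbered libraries from their group means correlated at 0.101, 0.342, 0.34 and 0.32, all above 0.1, so the numbers were taken to pair the libraries. Libraries of unlike number within a set correlated about as much (replicates 1 with 2 at 0.258 and 0.27, 3 with 4 at 0.296 and 0.313), and R882H replicate 1 correlated more with WT replicate 2 than with WT replicate 1, so the values show the sets 1 and 2 and 3 and 4 more than single pairs. The pairing comes from the data, since no label says what a number marks. No pair of libraries of a group agreed within sampling noise (lowest chi-square per gene 38.4 over 12 pairs).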

Additional observations from a re-analysis of the deposited data

Results flagged for a closer look

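Single libraries stood far from the other 3 of their group in 10 of 134 groups of values examined over the named genes and list scores, where chance gives about 1 in 20. Gpx3 stood at 7.29 CPM in R882H replicate 1, against 2.44 to 2.77 CPM in the other R882H libraries. Myo1d stood at 62.04 CPM in R882H replicate 2, against 12.7 to 18.3 CPM in the others. Klf9 reached 16.6 CPM in WT replicate 4, against 12.4 to 12.7 CPM in the other WT libraries. WT replicate 3 was low for Tet1, at 18.05 CPM against 32.1 to 32.4 CPM, and for Tet2, at 20.2 CPM against 34.1 to 34.7 CPM. R882H replicate 2 had a Hox, Meis and Pbx score of 1.67 (others 2.80 to 2.92), a ribosome biogenesis score of 8.21 (7.28 to 7.40) and an integrated stress response score of 5.54 (5.31 to 5.34), all as mean log2 CPM. The germline score of WT replicate 4 was 0.38 (others -1.04 to -0.80), and the ribosome biogenesis score of WT replicate 1 was 7.57 (7.39 to 7.42).

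The genotype difference itself differed between replicates 1 and 2 and replicates 3 and 4 for 4 genes in edgeR. The change was 5.28 on the log2 scale for Rnf128 (adjusted p = 0.00291, edgeR) and 5.24 for Ctse (adjusted p = 0.00736, edgeR). Gm42031, a gene model, changed by -7.69 (adjusted p = 0.00291, edgeR), with WT replicates 3 and 4 at 0.278 and 0.187 CPM and the 6 other libraries at 12.8 CPM or more. Gm35279, another gene model, had a fitted change of -8.82 (adjusted p = 0.0168, edgeR), which is no bound because WT replicates 3 and 4 were at 0. For 4 of 40 list scores, all R882H libraries lay on one side of the WT libraries in replicates 1 and 2. They lay all on the other side in replicates 3 and 4. This difference was not tested, and how many lists would do so by chance was not estimated. R882H minus WT in replicates 1 and 2, and then in replicates 3 and 4, was -0.12 and 0.11 for p53 targets, 1.81 and -0.51 for lineage markers of the sort, 0.29 and -0.27 for ribosomal protein genes, and 0.99 and -0.39 for mitochondrially encoded genes.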

How the results depend on the processing

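The count of genes called depended on the setting. edgeR called 1 gene with either other scaling or a stricter filter, as did limma-voom. DESeq2 called 28, and a term for the number sets 2, Clca3a1 among them. In a fit of all 16 libraries, the contrast within replicates 1 and 2 called 432 and that within replicates 3 and 4 called 2. With replicate number as a block over all 16 libraries, edgeR called 1 gene, Clca3a1 (adjusted p = 0.043), which the main fit did not call. That block also ties azacitidine to NaCl libraries of the same number, whereas pairing was checked among the NaCl libraries only. The count was 0 with no filter (1534 genes at an unadjusted p under 0.05), with the 8 NaCl libraries alone (448), with those and the block (604), without R882H replicates 1 and 2 (1995) and without any single library (567 to 1590). The cause of these differences was not tested.

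Among genes of the methylation machinery, differences near 0 changed sign. With replicates 3 and 4 only they were 0.0556 for Dnmt3a, 0.0749 for Dnmt1, 0.0170 for Dnmt3b, 0.0821 for Tet1 and 0.17 for Tet2, and with replicates 1 and 2 only 0.10 for Tet3. Without R882H replicates 1 and 2, an alternative chosen after seeing the data, they were 0.35 for Dnmt1, 0.17 for Dnmt3b, 0.0052 for Uhrf1 and 0.0123 for Tet2. That alternative mixes genotype with replicate number. Leaving out 1 library at a time, the range was -0.18 to 0.0446 for Dnmt3a, -0.28 to 0.23 for Dnmt1, -0.27 to 0.0398 for Uhrf1, -0.28 to 0.0868 for Tet1, -0.22 to 0.0817 for Tet2 and -0.26 to 0.15 for Tet3. The cause was not tested. The biological coefficient of variation was 40.7% in edgeR, and genes of a few CPM or less carry counting error beside it.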
